A study of Mus musculus with 8 samples.

Results

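The genes described here make cholesterol and fatty acids or control the handling of sterols. They were a list of 38 genes chosen by function, from the enzymes of the mevalonate pathway to the transporters that carry cholesterol out of the cell. Of these, 37 had at least 1 probe set (a group of short probes against 1 transcript) annotated to that gene alone, 91 probe sets of 45101 on the array, and Acat2, a thiolase that joins acetyl-CoA units, was not analysed here. The members were listed by function, but with earlier results of these data known, and the desaturase gene Scd2 was left out by rule. Each gene is given by its brightest probe set over all arrays unless another is named, and all 37 of these passed the filter on dim probe sets, as did 83 of the 91.

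CD8+ T cells had been purified from mouse spleen and profiled on Affymetrix arrays, with 2 arrays for each of 4 groups. Wild-type mice were C57BL/6, and the knockout mice lacked Elf4 (Elf4-/-), a transcription factor gene of the ETS family that the study linked to the control of CD8+ T cell proliferation. Naive cells had been left untreated. Activated cells had been cultured for 3.5 days on plates coated with anti-CD3, together with anti-CD28, in RPMI with serum and T-stim. The labels do not say whether replicates were separate animals or cultures, nor which part of Elf4 was deleted, so the spread that the p-values measure is that between arrays and may be technical.

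Cells make cholesterol from acetyl-CoA through the mevalonate pathway, which also supplies isoprenoids, and they make fatty acids from acetyl-CoA and malonyl-CoA. Most enzymes of both routes are targets of the SREBP transcription factors, which the escort protein SCAP carries from the endoplasmic reticulum to the Golgi when sterols are low and which INSIG proteins hold back when sterols are high. Excess sterol activates the LXR receptors, whose targets include the cholesterol exporters ABCA1 and ABCG1. T cells that begin to divide need membrane lipid, and induction of the SREBP programme is a known part of their growth.

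Several facts of the whole series bear on these genes. Cd8a read 14239.7 to 17150.2 when naive and 4288 to 6289.5 once activated, and Cd4 stayed between 18.0 and 43.1, below the median of every array. The knocked-out gene Elf4 was dim on all arrays: the brighter of its probe sets gave 116 and 199 for naive wild type against 165 and 192 for the naive knockout, and 83.6 and 134 against 76.2 and 80.6 once activated, so it does not check the genotype labels. In naive cells Xist, made from the inactive X, read 60.3 to 172 and Eif2s3y, a gene of the Y, 2537 to 5146, whereas in activated cells they read 7703 to 10011 and 2.93 to 44.0. The spiked-in lys control read 989 to 1654 when naive and 62726 to 78734 once activated. The ratio of the 3' to the 5' control probe set of Actb, which rises as RNA degrades, was 1.96 to 2.50 when naive and 5.90 to 11.1 once activated. For Gapdh the states lay closer, at 3.38 to 4.42 when naive and 4.83 to 7.56 once activated. The sex pattern, the spike level, these ratios and the state of activation therefore cannot be told apart. In naive knockout cells, where 4 of 10 tested granulocyte markers and 0 of 9 tested macrophage and monocyte markers passed as higher than in wild type, the summed intensity of 11 granulocyte markers was 4869 and 19812, against 556 and 912 in wild type, and that of 14 macrophage and monocyte markers was 4461 and 7629, against 2557 and 3006.

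Most of the sterol and fatty acid genes were higher in activated than in naive cells of both genotypes, while the exporters Abca1 and Abcg1 and the acetyl-CoA synthetase Acss2 were lower. In wild-type cells 25 of the 37 genes rose and 3 fell, and in knockout cells 26 rose and 4 fell (limma, adjusted p of at most 0.05). Over all 12797 genes tested in the same way, 45.4% passed in wild type and 48% in knockout cells, with 21.3% and 21.9% higher and 24.1% and 26.1% lower. Naive and activated arrays had no overlap for 28 higher and 5 lower genes of the 37 in wild type, beside 72% of all genes (32.6% higher and 39.4% lower), and for 29 higher and 5 lower in knockout cells, beside 75.2% (33.9% higher and 41.3% lower). The median log2 change of the 37 genes was 1.19 in wild type and 1.49 in knockout cells, beside −0.12 for all genes in each genotype. The same 23 genes rose in both genotypes and the same 3 fell in both. The risen genes include Srebf2 in both genotypes and Elovl1 in knockout cells, which also have a probe set of the opposite sign. On a per-array view the mean log2 level of the 37 genes was 9.76 to 9.84 on the 4 naive arrays and 11.11 to 11.24 on the 4 activated arrays, so the states did not overlap. With the Actb ratio as a covariate, which follows the state, 4 genes passed in wild type and 0 in knockout cells (20 and 11 at an unadjusted p under 0.05), with a median log2 change of 1.51 and 1.57.

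**Figure D1:**
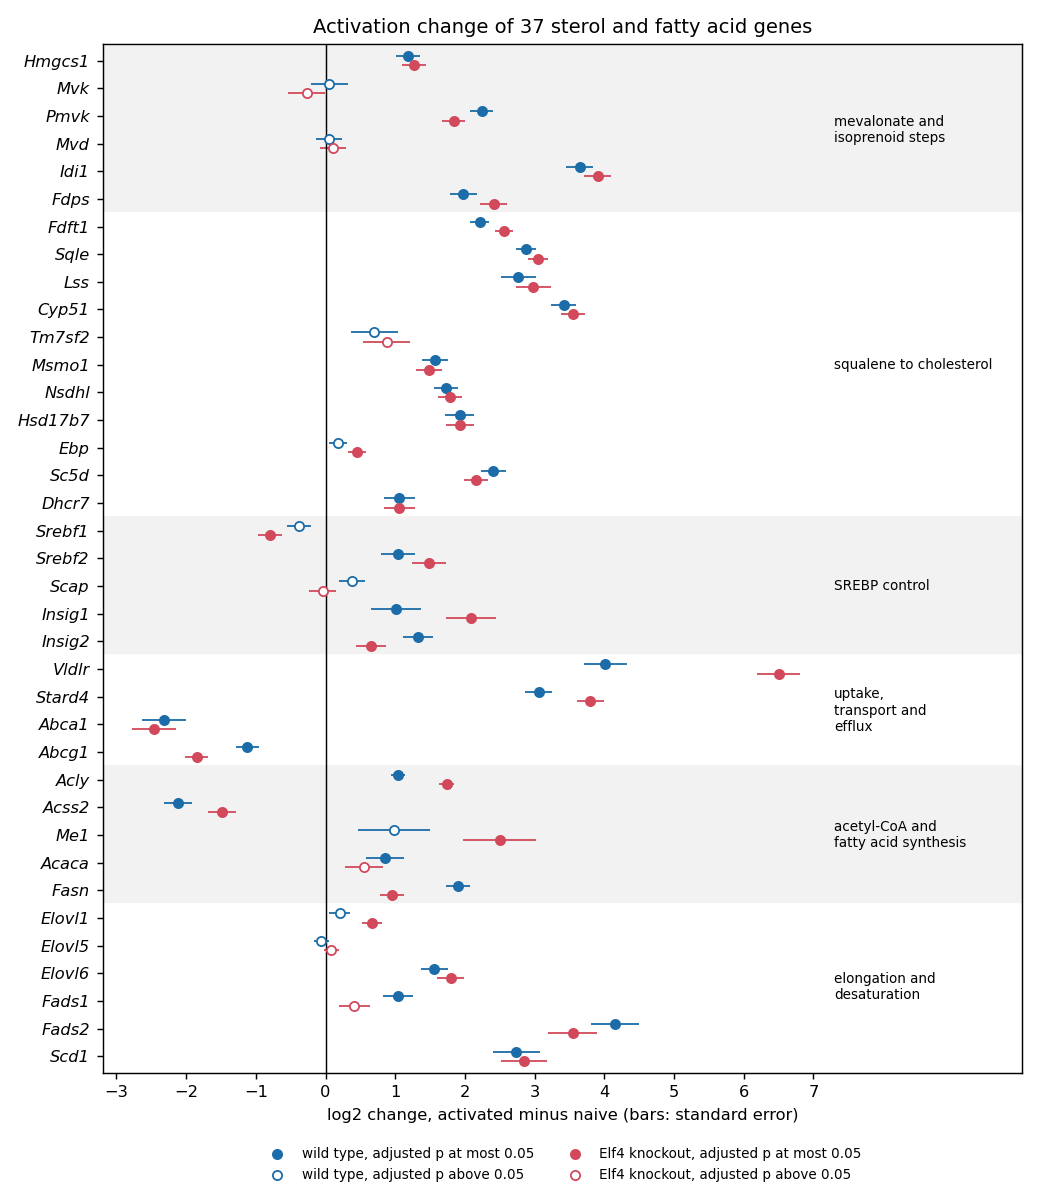
Log2 change from naive to activated cells (horizontal axis, log2 of intensity + 16) for 37 genes grouped by role, in wild-type cells (blue) and Elf4 knockout cells (red), each from 2 arrays per group. Bars are standard errors from the limma fit and filled points passed an adjusted p of 0.05; 25 genes rose in wild type and 26 in knockout cells, and Abca1, Abcg1 and Acss2 lie left of zero in both.

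Of the 6 genes of the mevalonate and isoprenoid steps, 4 rose in both genotypes. Idi1, the isomerase that interconverts the isoprenoid building blocks, read 885 and 611 on the naive and 9552 and 9251 on the activated wild-type arrays, beside 577 and 770.3 and 10649 and 9782 on the knockout arrays in the same order. All 4 activated arrays were above all 4 naive arrays, with log2 changes of 3.65 in wild type (SE 0.20, adjusted p = 2.4e-07) and 3.90 in knockout (SE 0.20, adjusted p = 1.51e-07). Pmvk, which phosphorylates mevalonate phosphate, read 503 and 522 in the wild type when naive and 2464 and 2496 when activated, with 601 and 722 and 2358 and 2431 for the knockout likewise. Its rise was 4.72-fold in wild type and 3.57-fold in knockout cells (adjusted p = 2.02e-06 and 7.5e-06). Fdps, which makes farnesyl diphosphate, the branch point to sterols and to prenylated proteins, read 545 and 555 naive and 2085 and 2342 activated on the wild-type arrays, and 488 and 387 naive and 2699 and 2101 activated on the knockout arrays. Here too the states did not overlap, with log2 changes of 1.98 in wild type (SE 0.19, adjusted p = 1.59e-05) and 2.41 in knockout (SE 0.19, adjusted p = 3.32e-06). Hmgcs1, the cytosolic synthase at the entry of the pathway, read 10463 and 8267 on the naive and 20442 and 21958 on the activated wild-type arrays, beside 10200.2 and 7079 and 19102 and 22119 on the knockout arrays in the same order. It changed by 1.19 and 1.27 on the log2 scale (adjusted p = 0.000306 and 0.000168). Mvk, the mevalonate kinase, did not pass, at 0.05 in wild type and −0.27 in knockout cells (adjusted p = 0.894 and 0.45). Mvd, the decarboxylase that follows, gave 0.05 and 0.11 on its brightest probe set (adjusted p = 0.872 and 0.675), while its other probe set rose by 1.03 and 1.10 (adjusted p = 0.00271 and 0.00167).

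Of the 11 genes from squalene to cholesterol, 9 rose in wild-type and 10 in knockout cells, and none fell. Fdft1, squalene synthase, read 1726 and 1664 in the wild type when naive and 7665 and 8144 when activated, with 1369 and 1369.9 and 7634 and 8738 for the knockout likewise. Sqle, the squalene epoxidase and a rate-limiting step of the later pathway, read 906 and 772 naive and 6369 and 6071 activated on the wild-type arrays, and 720.1 and 732 naive and 6220.1 and 6018 activated on the knockout arrays. Their log2 rises were 2.21 and 2.87 in wild type (SE 0.13 and 0.14, adjusted p = 4.84e-07 and 1.59e-07), and 2.56 and 3.05 in knockout cells (adjusted p = 1.76e-07 and 1.08e-07). Lss, which closes the sterol rings to lanosterol, read 477 and 811 on the naive and 4258 and 4402 on the activated wild-type arrays, beside 663 and 444 and 4234 and 4578 on the knockout arrays in the same order. It rose 6.81-fold and 7.91-fold (adjusted p = 8.71e-06 and 4.59e-06). Cyp51, the lanosterol demethylase, read 409 and 356 in the wild type when naive and 4041 and 4431 when activated, with 324 and 409 and 4503 and 4365 for the knockout likewise. This was the largest rise among the 11 in both genotypes, with log2 changes of 3.42 in wild type (SE 0.17, adjusted p = 1.73e-07) and 3.55 in knockout (SE 0.17, adjusted p = 1.34e-07). Sc5d, the sterol desaturase, read 549 and 482 naive and 2726 and 2876 activated on the wild-type arrays, and 489 and 599 naive and 2553 and 2375 activated on the knockout arrays, and it rose by 2.41 and 2.15 (adjusted p = 1.71e-06 and 3.4e-06). In each of these genes the lowest activated array lay above the highest naive array.

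The demethylation steps after lanosterol rose in both genotypes. The log2 changes in wild type and knockout cells were 1.57 and 1.49 for Msmo1, the methylsterol oxidase (adjusted p = 5.85e-05 and 7.72e-05). They were 1.73 and 1.79 for Nsdhl, the sterol decarboxylase (adjusted p = 1.8e-05 and 1.23e-05). Hsd17b7, the ketosterol reductase of the same complex, gave 1.92 and 1.93 (adjusted p = 3.04e-05 and 2.6e-05). Dhcr7, the last reductase on the way to cholesterol, read 1174 and 895 on the naive and 2048 and 2263 on the activated wild-type arrays, beside 938 and 893 and 1552 and 2387 on the knockout arrays in the same order. It rose 2.08-fold in wild type and 2.08-fold in knockout cells (adjusted p = 0.0028 and 0.00258), but its knockout change turned to −0.48 with the Actb ratio as a covariate (adjusted p = 0.923). Ebp, the sterol isomerase, read 2299.7 and 2442 in naive and 3377 and 3120.4 in activated knockout cells. It passed in knockout cells at 0.45 (adjusted p = 0.0173) and not in wild type at 0.18 (adjusted p = 0.302). The Ebp call was lost without knockout naive replicate 1 or either knockout activated array (adjusted p = 0.0626, 0.121 and 0.0537). Tm7sf2, a sterol reductase, had wide replicates, with 705 and 1199.9 in activated wild-type cells, and did not pass in either genotype (adjusted p = 0.132 and 0.0609). With each array centred on its median it passed in both genotypes (adjusted p = 0.0359 and 0.0195). It also did with crossed replicate numbers as a block (limma, adjusted p = 0.0288 and 0.00895). In knockout cells it passed too with quantile normalization, a replicate block or the 4 knockout arrays alone (adjusted p = 0.0449, 0.0437 and 0.0091). Without wild-type naive replicate 2 the wild-type change was 1.22.

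**Figure D2:**
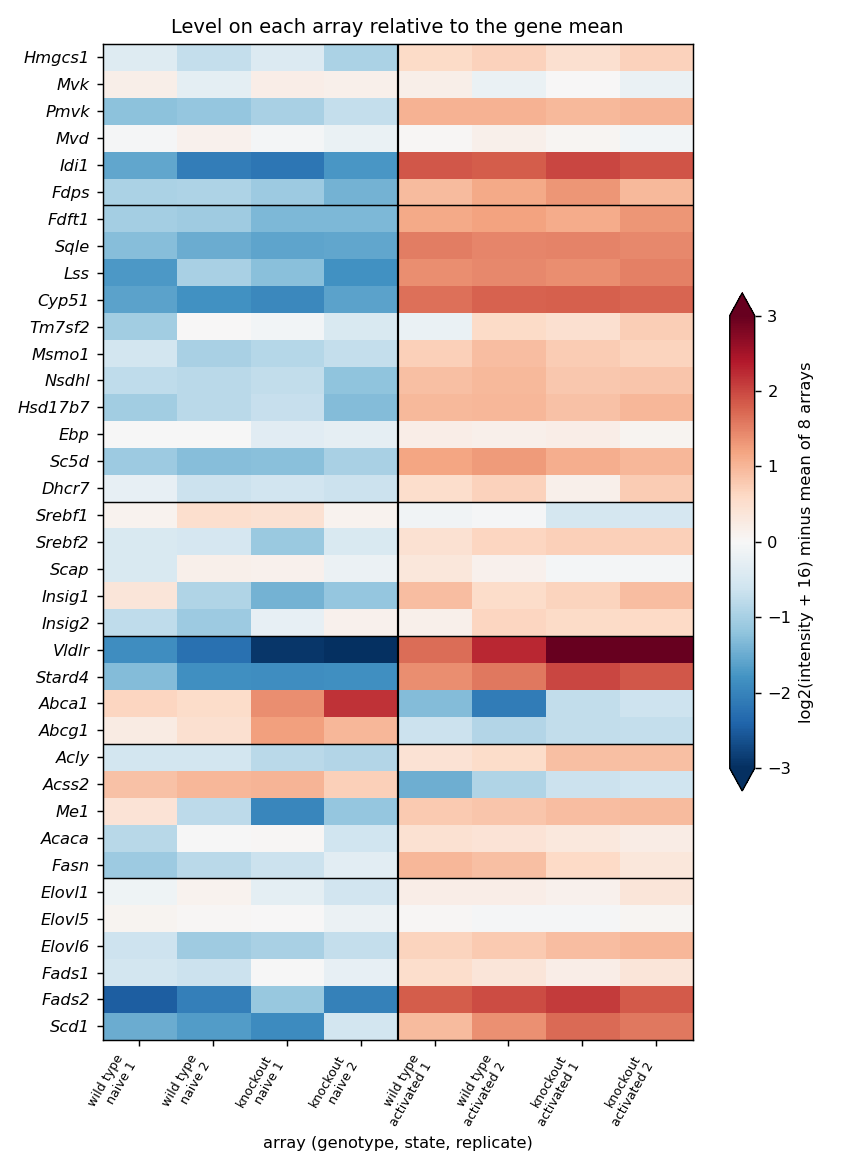
Each row is 1 of the 37 genes, ordered by role with lines between roles, and each column is 1 array. Colour is the log2(intensity + 16) minus that gene's mean over the 8 arrays, with values past 3 drawn in the end colours; the vertical line separates the 4 naive from the 4 activated arrays, and Abca1, Abcg1 and Acss2 run opposite to most rows.

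Promoter windows, from 250 bases before to 50 bases after a RefSeq start in GRCm38.p6, were listed for 31 of the 38 genes. They are shown because a CCAAT box, the site of the factor NF-Y, stands next to the sterol response elements of known SREBP targets. The letters CCAAT, on either strand, stood in a window of 25 of the 31 genes, against 42.3% of 17491 protein-coding genes. Of the 19 genes that rose in wild-type cells and had a window, 16 held these letters, as did 9 of the other 12. A sterol regulatory element, searched as TCACNCCAC on both strands, stood in 1 of the 31, Hmgcs1, against 1.41% of protein-coding genes. The E-box CACGTG stood in 7 of the 31, against 8.91%. These matches describe letters only. The windows shown, chosen after the values were seen, are those of Hmgcs1, of the 3 genes with the largest wild-type rise among those with a CCAAT box in a listed window, and of Acss2, which fell. They are written 5′ to 3′ on the gene's strand, with CCAAT or its reverse ATTGG in capitals, and in Hmgcs1 also the sterol element, which begins 137 bases before the start. No printed element overlaps another.
Hmgcs1, chr13:119690101-119690400, plus strand: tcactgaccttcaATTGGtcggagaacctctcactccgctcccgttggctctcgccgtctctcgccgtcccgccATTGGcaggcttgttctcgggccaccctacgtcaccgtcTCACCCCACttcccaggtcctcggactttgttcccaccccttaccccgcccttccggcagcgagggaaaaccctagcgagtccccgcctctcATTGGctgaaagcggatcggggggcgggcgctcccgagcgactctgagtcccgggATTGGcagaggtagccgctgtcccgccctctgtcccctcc
Idi1, chr13:8885356-8885655, plus strand: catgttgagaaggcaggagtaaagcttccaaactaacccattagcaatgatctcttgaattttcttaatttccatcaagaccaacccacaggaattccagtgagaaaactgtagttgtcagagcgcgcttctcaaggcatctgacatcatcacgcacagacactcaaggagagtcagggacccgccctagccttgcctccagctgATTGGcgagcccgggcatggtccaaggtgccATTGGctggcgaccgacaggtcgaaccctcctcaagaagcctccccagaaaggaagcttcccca
Cyp51, chr5:4104648-4104947, minus strand: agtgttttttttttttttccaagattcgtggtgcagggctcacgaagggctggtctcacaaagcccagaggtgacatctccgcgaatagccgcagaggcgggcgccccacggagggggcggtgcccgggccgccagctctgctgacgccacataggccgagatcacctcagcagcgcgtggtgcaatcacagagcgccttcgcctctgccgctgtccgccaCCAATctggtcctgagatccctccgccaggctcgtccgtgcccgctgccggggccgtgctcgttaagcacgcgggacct
Vldlr, chr19:27216770-27217069, plus strand, 1 of its 2 windows: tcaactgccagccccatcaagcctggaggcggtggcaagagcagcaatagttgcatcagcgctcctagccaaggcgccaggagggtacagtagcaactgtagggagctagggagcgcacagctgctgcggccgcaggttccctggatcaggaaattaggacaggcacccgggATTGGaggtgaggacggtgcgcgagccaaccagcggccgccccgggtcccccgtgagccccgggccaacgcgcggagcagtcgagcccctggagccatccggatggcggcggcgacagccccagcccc
Acss2, chr2:155517793-155518092, plus strand: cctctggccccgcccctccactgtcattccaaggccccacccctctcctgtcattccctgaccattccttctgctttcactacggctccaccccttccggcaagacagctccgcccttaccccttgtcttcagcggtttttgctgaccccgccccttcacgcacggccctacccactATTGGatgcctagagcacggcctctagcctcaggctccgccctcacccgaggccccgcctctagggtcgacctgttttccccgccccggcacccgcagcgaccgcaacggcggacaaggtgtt

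The 5 genes of SREBP control did not move as one. Srebf2, whose product drives the cholesterol genes, read on its brightest probe set 360.4 and 350.1 in the wild type when naive and 699.7 and 795 when activated, with 224 and 362 and 829 and 829 for the knockout likewise. That set rose, with log2 changes of 1.04 in wild type (SE 0.25, adjusted p = 0.00617) and 1.49 in knockout (SE 0.25, adjusted p = 0.000583). Its other probe set read 778 and 589.9 naive and 361 and 274 activated on the wild-type arrays, and 619.9 and 691 naive and 402 and 243 activated on the knockout arrays. There every activated array lay below the naive arrays of its genotype, with log2 changes of −1.07 in wild type (SE 0.28, adjusted p = 0.0107) and −1.03 in knockout (SE 0.28, adjusted p = 0.0124). No direction can therefore be given for Srebf2. Srebf1, which encodes the SREBP forms that favour fatty acid genes, read 3415 and 4458 on the naive and 2925 and 3053 on the activated wild-type arrays, beside 4354 and 3387 and 2187 and 2225 on the knockout arrays in the same order. It fell in knockout cells, by 0.80 on the log2 scale (adjusted p = 0.00315), and did not pass in wild type at −0.38 (adjusted p = 0.0997), except without wild-type naive replicate 1 (−0.57, adjusted p = 0.0301). The difference between the genotypes in this change was −0.41 (adjusted p = 0.628). Scap, the escort protein, read 3058 and 4624 in the wild type when naive and 5279 and 4551 when activated, with 4550.3 and 3722 and 4013 and 3996 for the knockout likewise, with overlapping states. Its log2 changes were 0.38 and −0.04 (adjusted p = 0.144 and 0.893), and it passed in wild type without wild-type naive replicate 2 (0.68, adjusted p = 0.0118) and under median centring (0.57, adjusted p = 0.0319).

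Both INSIG genes, which encode the proteins that retain SCAP, were higher in activated cells. Insig1, itself an SREBP target, read 666 and 267 naive and 985 and 763 activated on the wild-type arrays, and 183 and 222 naive and 830.1 and 994 activated on the knockout arrays. The wild-type naive arrays lay far apart, and the change was 1.01 in wild type (SE 0.36, adjusted p = 0.0436) and 2.09 in knockout cells (SE 0.36, adjusted p = 0.000731). The wild-type call of Insig1 was lost in 12 of 20 alternatives. Among these were no offset, no filter, no trend and the 4 wild-type arrays alone (limma, adjusted p = 0.0531, 0.061, 0.114 and 0.0737). Others were the Actb covariate and the fits without any 1 of the knockout arrays. It was also lost without wild-type naive replicate 2 (0.37) and without activated wild-type replicate 1 or 2 (0.83 and 1.19). Insig2 read 723 and 575 on the naive and 1384 and 1961 on the activated wild-type arrays, beside 1044 and 1362 and 1863 and 1895 on the knockout arrays in the same order. Its other probe sets rose 2.21-fold and 1.53-fold in wild type and 2.87-fold and 1.76-fold in knockout cells, all past the threshold. On those sets the rise was larger in knockout cells. By its brightest set the order was the reverse, as it rose 2.52-fold in wild type and 1.57-fold in knockout cells (adjusted p = 0.00057 and 0.0323). The knockout call of Insig2 was lost without knockout naive replicate 1 (0.46, adjusted p = 0.185) or either activated knockout array (adjusted p = 0.117 and 0.132).

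All 4 genes of uptake, transport and efflux passed in both genotypes: Vldlr and Stard4 rose, and Abca1 and Abcg1 fell. Vldlr, a receptor that takes up lipoprotein, read 64.6 and 46.0 in the wild type when naive and 919.5 and 1383 when activated, with 22.8 and 9.75 and 2972 and 2728 for the knockout likewise. Each naive value was below the median of its own array, and each activated value was above it. The log2 rise was 4.02 in wild type (SE 0.31, adjusted p = 2.96e-06) and 6.50 in knockout cells (SE 0.31, adjusted p = 1.16e-07), the largest of the 37 genes in knockout cells. Stard4, which carries cholesterol between membranes in the cytosol, read 572 and 389 naive and 3784 and 4334 activated on the wild-type arrays, and 382 and 388 naive and 5831 and 5298 activated on the knockout arrays. It rose 8.33-fold and 13.9-fold (adjusted p = 7.6e-07 and 1.76e-07), and its other 2 probe sets rose as well.

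The exporters ran the other way. Abca1, which loads cholesterol onto lipid-poor apolipoprotein, read 769 and 721 on the naive and 185 and 100.1 on the activated wild-type arrays, beside 1294 and 2235 and 283 and 308 on the knockout arrays in the same order. Every activated array lay below every naive array, with log2 changes of −2.31 in wild type (SE 0.31, adjusted p = 0.000164) and −2.46 in knockout (SE 0.31, adjusted p = 9.5e-05). Abcg1, which exports sterol to lipoprotein particles, read 1833 and 2144 in the wild type when naive and 978 and 833 when activated, with 3642 and 3081 and 909 and 926 for the knockout likewise. It was 2.18-fold lower after activation in wild type and 3.61-fold lower in knockout cells (adjusted p = 0.000351 and 8.6e-06). A dimmer Abcg1 probe set also fell in both genotypes, with log2 changes of −3.60 and −3.03, while a dim Abca1 probe set gave 0.40 and −0.31 (adjusted p = 0.55 and 0.642). Macrophages express both exporters, and markers of macrophages fell beside them. The summed intensity of the 14 measured markers was 2557 to 7629 when naive and 711 to 903 once activated. Of the 9 markers tested, 5 fell and 1 rose in wild type and 8 fell in knockout cells, and the defining gene Csf1r read 1008 and 1187 in naive and 191 and 76.7 in activated wild-type cells, with no marker listed at 0 and Cd14, C1qa, Cd163, Spic and Marco too dim to be tested. The T cell markers fell as well, from a sum of 93826 to 120495 on naive to 30079 to 37927 on activated arrays. The summed B cell markers read 5327 to 12177 and 642 to 967 in the same order. The summed granulocyte markers read 556 to 19812 and 254 to 536. The part of any of these in the fall of Abca1 and Abcg1 was not tested. In these bulk samples fewer cells of a type and less RNA per cell cannot be told apart.

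**Figure D3:**
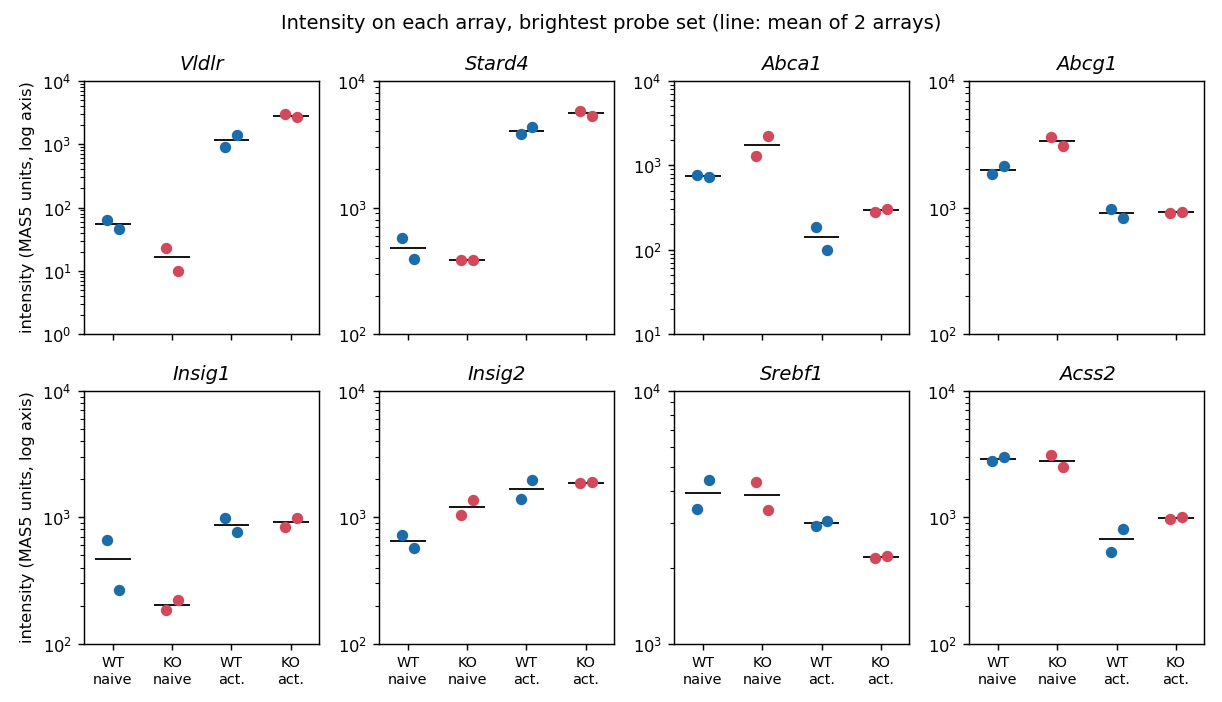
Intensity (MAS5 units, log axis, with its own range in each panel) on each of the 8 arrays for 8 genes of transport, SREBP control and acetyl-CoA supply, wild type (WT) in blue and knockout (KO) in red, with a line at the mean of 2 arrays. Vldlr and Stard4 are higher and Abca1, Abcg1 and Acss2 lower on all activated (act.) than on all naive arrays.

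The supply of acetyl-CoA was split between its 2 measured enzymes. Acly, which makes cytosolic acetyl-CoA from citrate, read 9875 and 9902 naive and 19436 and 21272 activated on the wild-type arrays, and 8313 and 7922 naive and 27207 and 26949.9 activated on the knockout arrays. It rose, with log2 changes of 1.04 in wild type (SE 0.10, adjusted p = 1.88e-05) and 1.74 in knockout (SE 0.10, adjusted p = 4.56e-07). Acss2, which makes acetyl-CoA from acetate, read 2795 and 3007 on the naive and 535 and 806 on the activated wild-type arrays, beside 3098 and 2479 and 960.0 and 999.5 on the knockout arrays in the same order. It was 4.33-fold lower after activation in wild type and 2.80-fold lower in knockout cells (adjusted p = 1.51e-05 and 0.00017), and a further probe set fell as well (−2.25 and −1.97). Fasn, the fatty acid synthase, read 1221 and 1469 in the wild type when naive and 5224 and 4885 when activated, with 1661 and 2089 and 3945 and 3311 for the knockout likewise. Its states did not overlap, with log2 changes of 1.90 in wild type (SE 0.17, adjusted p = 7.7e-06) and 0.95 in knockout (SE 0.17, adjusted p = 0.000984). Acaca, the carboxylase that makes malonyl-CoA, read 696 and 1235 naive and 1706 and 1659 activated on the wild-type arrays, and 1280.1 and 812 naive and 1548 and 1457 activated on the knockout arrays. It passed in wild type at 0.85 (adjusted p = 0.0296) and not in knockout cells at 0.55 (adjusted p = 0.132), and the wild-type call was lost without wild-type naive replicate 1 (0.44, adjusted p = 0.199) or either activated wild-type array (adjusted p = 0.128 and 0.111). In knockout cells Acaca passed without knockout naive replicate 1 (0.87, adjusted p = 0.0443). Me1, the malic enzyme that supplies NADPH, was dim, with 105 and 36.8 on the naive and 140.4 and 144 on the activated wild-type arrays, beside 7.18 and 24.7 and 156 and 159 on the knockout arrays in the same order. It passed in knockout cells at 2.50 (adjusted p = 0.00273) and not in wild type at 0.99 (adjusted p = 0.163), and the difference itself was 1.51 (adjusted p = 0.549).

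All 3 desaturases rose in wild type and 2 of them in knockout cells. By brightest probe set, 1 of 3 elongases rose in wild type and 2 in knockout cells. Fads2, the first desaturase of polyunsaturated fatty acid synthesis, read 24.9 and 38.9 in the wild type when naive and 789.8 and 869 when activated, with 88.0 and 40.0 and 956 and 800.1 for the knockout likewise. With naive values near or below the array medians, it rose by 4.15 in wild type, the largest rise of the 37 genes there (SE 0.35, adjusted p = 4.9e-06), and by 3.54 in knockout cells (adjusted p = 1.37e-05). Scd1, which makes monounsaturated fatty acids, read 937 and 818 naive and 5107 and 6889 activated on the wild-type arrays, and 708 and 1813 naive and 8624 and 7929 activated on the knockout arrays. It rose 6.67-fold and 7.20-fold (adjusted p = 7.75e-05 and 5.21e-05), and a dimmer probe set gave log2 rises of 2.89 and 3.15. Fads1, the desaturase that follows Fads2, read 297 and 275 on the naive and 638 and 572 on the activated wild-type arrays, beside 438 and 368 and 511 and 572 on the knockout arrays in the same order. It passed in wild type at 1.04 (adjusted p = 0.00304) and not in knockout cells at 0.41 (adjusted p = 0.155), except with quantile normalization (0.63, adjusted p = 0.0464). The difference between the genotypes was −0.62 (adjusted p = 0.559).

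Among the elongases, Elovl6, which extends palmitate, rose from 625 ± 144 to 1853 ± 98.1 in wild type (mean ± SD, n = 2), with log2 changes of 1.56 in wild type (SE 0.20, adjusted p = 9.65e-05) and 1.80 in knockout (SE 0.20, adjusted p = 3.14e-05). Elovl5, which extends polyunsaturated chains, read 15961 and 15470.3 in the wild type when naive and 15464 and 14685 when activated, with 15259.9 and 13359.9 and 14711 and 15542 for the knockout likewise, with little difference between the states. Its log2 changes were −0.06 and 0.08 (adjusted p = 0.705 and 0.59), but in knockout cells it was −0.28 with quantile normalization (adjusted p = 0.0319), and its other probe set gave −0.69 (adjusted p = 0.00713). Elovl1, which makes very long saturated chains, gave 0.20 and 0.67 on its brightest probe set (adjusted p = 0.312 and 0.00397). The knockout call of Elovl1 was lost without knockout activated replicate 2 (0.55, adjusted p = 0.0507), and the change was −0.45 with the Actb ratio as a covariate (adjusted p = 0.883). A second Elovl1 probe set read 4453 and 4875 naive and 3307 and 3405 activated on the wild-type arrays, and 3843 and 3021 naive and 2639 and 3023 activated on the knockout arrays, and another, dimmer set read 134 and 146 on the naive and 447 and 507 on the activated wild-type arrays, beside 35.7 and 101 and 551 and 477 on the knockout arrays in the same order. In wild type the former fell, at −0.47, and the latter rose by 1.66 (adjusted p = 0.0305 and 0.0044), so no direction can be given for it. The remaining Elovl1 set, the only one not ending in _x_at, gave 0.36 in wild type and 0.33 in knockout cells. It did not pass in either (limma, adjusted p = 0.0816 and 0.107).

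Of the 25 genes with more than 1 tested probe set, 17 had all of them on the same side of zero in wild type and 19 in knockout cells. Over all 83 tested probe sets, 53 rose and 7 fell in wild type, and 55 rose and 8 fell in knockout cells, beside 17.4% higher and 21.8% lower of all 27389 probe sets tested in wild type and 18.2% and 23.4% in knockout cells. Genes with passing probe sets in both directions were Srebf2 and Elovl1 in wild type and Srebf2 in knockout cells. The size of a change depended on the probe set for several genes, in both directions. For Hmgcs1 the brightest gave 1.19 and 3 dimmer sets gave 2.69 to 3.21 in wild type (adjusted p = 0.000174 and 5.82e-05 at the ends of that range), while another gave −0.32 (adjusted p = 0.555). For Fdft1 the brightest gave 2.21 and the others 0.82, 1.40 and 2.68 in wild type. For Lss the brightest gave 2.77 and the others 1.27 and 0.99, and for Acly 1.04 stood beside −0.22 to 0.66. For Sc5d in wild type the brightest gave 2.41 and the others 1.04 and 0.68 (limma, adjusted p = 0.0292 and 0.497). In knockout cells the Sc5d values were 2.15 for the brightest and 0.81 and −0.76 for the others, neither of which passed (adjusted p = 0.0758 and 0.435). For Vldlr in knockout cells the brightest gave 6.50 and the others 1.99 to 4.28.

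**Figure D4:**
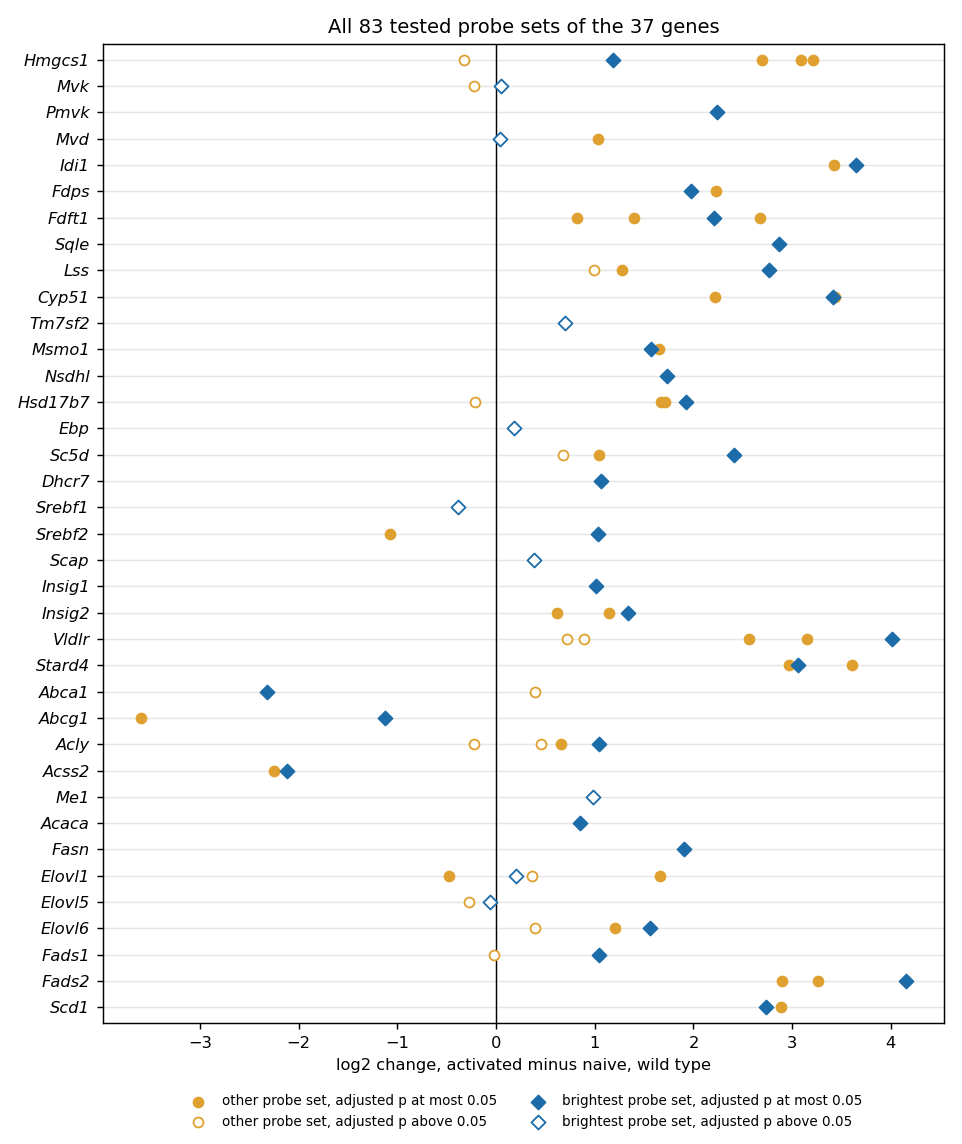
Log2 change from naive to activated wild-type cells (horizontal axis) for each of the 83 tested probe sets of the 37 genes, with the brightest of each gene as a blue diamond and the others as orange circles; filled symbols passed an adjusted p of 0.05. Srebf2 and Elovl1 have filled symbols on both sides of zero.

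Neighbouring routes were followed with 3 further lists. Of 16 tested genes of sterol control and traffic, 4 rose and 4 fell in wild type and 3 rose and 6 fell in knockout cells, with medians of 0.03 and −0.18. That is 50% and 56.2% of them, near the 45.4% and 48% of all genes that passed. Mylip, the LXR target that degrades lipoprotein receptors, fell from 3339 and 3855 to 276 and 374 in wild type, with log2 changes of −3.42 and −4.38 in wild type and knockout cells (adjusted p = 3.7e-07 and 7.1e-08). Among those that rose were Erlin1, which helps degrade sterol-regulated proteins (1.84 and 1.78, adjusted p = 1.41e-05 and 1.6e-05), and Mbtps2, a protease that releases SREBP (0.94 and 1.17, adjusted p = 0.00638 and 0.00165). Mbtps1, the protease that makes the first SREBP cleavage, fell (−0.77 and −0.94, adjusted p = 0.014 and 0.00432).

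Of 27 tested genes of fatty acid elongation and ester synthesis, 10 rose and 5 fell in wild type and 11 rose and 4 fell in knockout cells, with medians of 0.35 and 0.34. That is 55.6% of them in each genotype, beside 45.4% and 48% of all genes. Fabp5, a fatty acid carrier, went from 927 and 875 to 29878 and 29126 in wild type (5.01 and 5.31, adjusted p = 1.76e-08 and 6.5e-09). Slc25a1, which exports the citrate that Acly uses, rose too (adjusted p = 0.000109 and 8.66e-06), from 652 and 839 to 1963 and 2287 in wild type. Dgat2, which makes triglyceride, rose (3.11 and 3.19, adjusted p = 0.00493 and 0.00398), and Lipa, the lysosomal lipase, fell (−1.10 and −1.71, adjusted p = 0.000541 and 2.12e-05). Of 14 tested genes of fatty acid oxidation, 2 rose and 5 fell in each genotype, with medians of −0.24 and −0.29. That is 50% of them, near the 45.4% and 48% of all genes that passed. Cpt1a, the gate of long-chain fatty acids into mitochondria, changed by −1.41 and −1.88 (adjusted p = 0.000159 and 1.84e-05), and Acaa2, the last thiolase of the cycle, by −1.91 and −1.68 (adjusted p = 4.22e-06 and 9.46e-06). Decr1 and Acadl rose in both genotypes. By genotype, 0 genes of these 3 lists passed in either state, beside 0.836% of all genes in naive and 0.289% in activated cells.

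Markers of dividing cells rose beside these changes. The summed intensity of 7 proliferation markers, Mki67 among them, was 4980.4 to 6859.7 when naive and 78909 to 86198 once activated, and all 7 rose in both genotypes. Their part in the rise of the sterol genes was not tested.

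The comparison of genotypes in naive cells asked whether resting cells without Elf4 differ in lipid genes. Of the 37 genes, 0 passed (limma), beside 0.836% of all 12797 genes. An unadjusted p under 0.05 was found for 11 of the 37 and for 1791 of all 12797 genes, a smaller share. The median log2 difference was −0.07, beside 0.02 for all genes, and with each array centred on its median it was 0.04. In 19 of the 37 the genotypes had no overlap, 7 higher and 12 lower in the knockout, beside 39.7% of all genes (20.3% higher and 19.4% lower). For 29 of the 37 genes the 95% interval of the difference lay within 1 on the log2 scale on either side of zero, that is, within 2-fold.

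The smallest p-values belonged to Abcg1, Insig2 and Abca1, all higher in the knockout. Abcg1 read 1833 and 2144 in wild type against 3642 and 3081 in knockout cells, and Abca1 read 769 and 721 and 1294 and 2235. In both genes each knockout array lay above both wild-type arrays. The log2 differences were 0.75 for Abcg1 (95% interval 0.38 to 1.13, adjusted p = 0.1) and 1.17 for Abca1 (95% interval 0.48 to 1.87, adjusted p = 0.174). The other tested probe set of each gave −0.11 for Abcg1 and 0.16 for Abca1, so the sign for Abcg1 depended on the probe set. Knockout naive replicate 2 had the most granulocyte, macrophage and B cell signal. Its summed B cell markers read 12177, against 5327 to 6125 on the other naive arrays. Without that array the differences of the brightest sets were 0.87 for Abcg1 and 0.78 for Abca1. Without knockout naive replicate 1 they were 0.63 and 1.57. All 9 tested macrophage and monocyte markers were higher in the naive knockout, none of them passing, with a median log2 difference of 1.16. Csf1r read 1008 and 1187 in wild type against 1818 and 2276 in knockout cells, and Adgre1 read 119 and 407 and 455 and 487. Of 7 proliferation markers, 5 were also higher in the naive knockout and passed. The part of these marker genes in the exporter values was not tested.

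The INSIG genes had differences of opposite sign in naive cells, neither of which passed. Insig2 read 723 and 575 in wild type against 1044 and 1362 in knockout cells (log2 0.87, 95% interval 0.39 to 1.35, adjusted p = 0.14). Its other probe sets gave 0.49 and 0.30, and without knockout naive replicate 2 the difference was 0.68 (adjusted p = 0.443). Insig1 read 666 and 267 in wild type against 183 and 222 in knockout cells (log2 −1.01, adjusted p = 0.289). Both knockout arrays were below both wild-type arrays, which themselves differed by more than 2-fold. Without wild-type naive replicate 2, Insig1 passed at −1.65 (adjusted p = 0.0226).

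**Figure D5:**
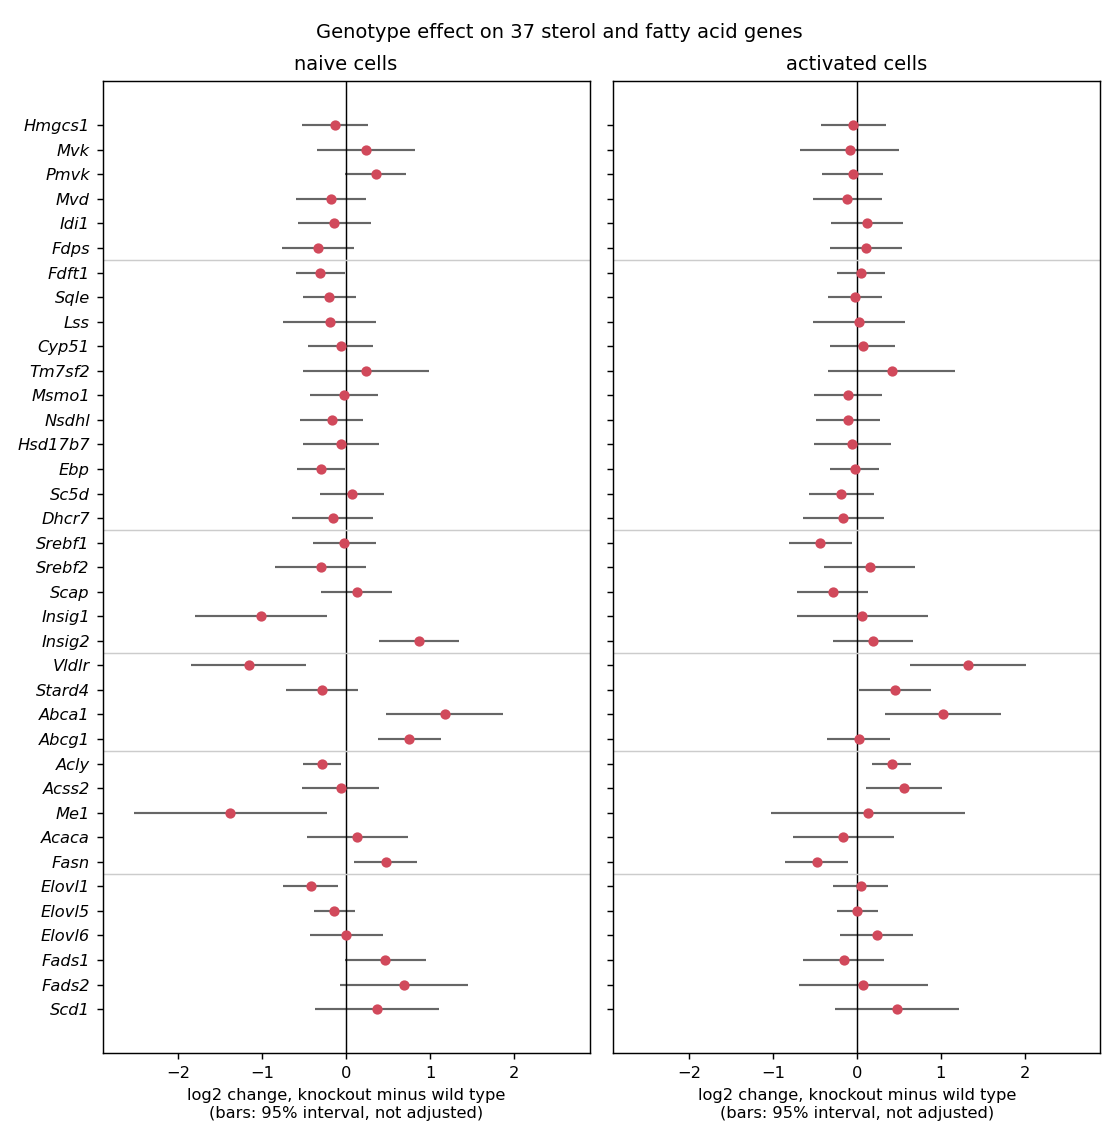
Log2 difference between Elf4 knockout and wild type (horizontal axis, log2 of intensity + 16) for the 37 genes in naive cells (left) and activated cells (right), from 2 arrays per group. Bars are 95% intervals from the limma fit, not adjusted for the number of genes; no gene passed an adjusted p of 0.05 in either state.

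In activated cells, where the comparison asked which genes depend on Elf4 after stimulation, again none of the 37 passed (limma), beside 0.289% of all genes. An unadjusted p under 0.05 was found for 7 of the 37 and for 1612 of all 12797 genes. The median log2 difference was 0.02, beside −0.01 for all genes. In 17 of the 37 the genotypes had no overlap, 10 higher and 7 lower in the knockout, beside 50.9% of all genes (25.2% higher and 25.7% lower). For 31 of the 37 genes the 95% interval lay within 2-fold. Among the 17 genes of the mevalonate and sterol steps the log2 differences ran from −0.18 for Sc5d to 0.42 for Tm7sf2.

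By brightest probe set, the smallest p-values in activated cells were those of Vldlr, Acly and Abca1, each higher in the knockout. Vldlr read 919.5 and 1383 in wild type against 2972 and 2728 in knockout cells, with both knockout arrays above both wild-type arrays. The log2 difference was 1.32 (95% interval 0.63 to 2.01, adjusted p = 0.134). In a fit of the 4 activated arrays alone, where 2.63% of all probe sets passed, the Vldlr difference passed (adjusted p = 0.00782). Of its other tested probe sets, 1 gave 1.36 and the others 0.15 to 0.62, none passing. Acly read 19436 and 21272 in wild type against 27207 and 26949.9 in knockout cells (log2 0.41, 95% interval 0.18 to 0.64, adjusted p = 0.163). The other tested Acly probe sets gave 0.10, 0.24 and −0.17, none passing, so its size and sign depended on the probe set. Abca1 read 185 and 100.1 and 283 and 308 (log2 1.03, 95% interval 0.33 to 1.72, adjusted p = 0.254), while its other tested set gave −0.55. The Actb ratio also differed by genotype here, at 5.98 and 5.90 in wild type against 7.44 and 11.1 in knockout cells. With that ratio as a covariate the 3 differences were 1.57, 0.43 and 0.96 (limma, adjusted p = 0.828, 0.848 and 0.879). Insig2 gave 0.19 on its brightest probe set (limma, adjusted p = 0.831). Its other sets gave 0.87 and 0.50, neither passing (adjusted p = 0.105 and 0.374). The former had a smaller unadjusted p than Vldlr, at 0.0007 against 0.00147.

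Whether the genotype effect differed between the states was tested as the difference of differences, and none of the 37 genes passed (limma), beside 0.086% of all genes. An unadjusted p under 0.05 was found for 7 of the 37 and for 1479 of all 12797 genes. Vldlr gave the smallest p. On its brightest probe set it read lower in the knockout in naive cells, at 64.6 and 46.0 against 22.8 and 9.75, and higher in activated cells. The difference of the genotype effects was 2.48 (SE 0.44, adjusted p = 0.0898), and without wild-type naive replicate 2 it passed at 2.67 (adjusted p = 0.0474). Its other tested probe sets gave 1.13, 2.54, −0.15 and 1.27, none passing, and 1 of them was higher in the naive knockout (0.30). Next were Acly at 0.70 (adjusted p = 0.132; 0.11 to 0.43 on its other tested sets) and Fasn at −0.95 (adjusted p = 0.203). Fasn read 1221 and 1469 in naive wild-type and 1661 and 2089 in naive knockout cells, and the order was turned after activation, at 5224 and 4885 and 3945 and 3311.

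The desaturase gene Scd2 was left out of the list by rule, so the count of 0 genes that passed by genotype in naive cells does not cover it. It read 1588 and 1216 in the wild type when naive and 32372 and 33062 when activated, with 2504 and 4249 and 42144 and 40579 for the knockout likewise, with a naive genotype difference of 1.22 (limma, adjusted p = 0.0361) and activation changes of 4.54 and 3.66 in wild type and knockout cells (adjusted p = 1.02e-07 and 3.68e-07).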

How the data were processed

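Per the submitters' processing notes the authors made the values with MAS5 (version not given) and deposited them as linear intensity values, with 1 value for each probe set of an array. In the deposited table the 2% trimmed mean intensity was 500 on every array, so the authors had scaled the arrays. Detection calls were not used, and the number of arrays limits the precision. Symbols came from the platform annotation (34958 probe sets with 1 gene, 932 with several, 9211 with none) and were updated through Entrez identifiers against GRCm38.p6 (34754 matched). Control probe sets (64) were left out.

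In R 4.3.3 with limma 3.58.1, log2(intensity + 16) was fitted with 4 group means over 8 arrays (lmFit, eBayes with trend=TRUE, 4 residual degrees of freedom, prior 6.68), for the 27389 probe sets that reached the median of their array on 2 or more arrays. A log2 change therefore understates the change of dim genes. Tests were two-sided, adjusted by Benjamini-Hochberg over all tested probe sets within a contrast, with a threshold of 0.05. The code was tested on simulated data. Alternatives were no offset or 64, quantile normalization, median centring, no filter or 6 of 8 arrays, no trend, the 4 arrays of a comparison alone, a replicate block, the Actb ratio as a covariate, any probe set, and each array left out. Replicate numbers were not taken as pairs. Values after ± are SDs. Promoter sequences are from RefSeq (GRCm38.p6).

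Per-array values were given by rule for members past the threshold with the 12 largest rises and falls per activation contrast, and for the 3 smallest p-values where none passed. Further members were chosen for their role. Members, lists, rules and most alternatives were chosen with earlier results of these data known. The alternatives without probe sets ending in _x_at or _s_at and with crossed replicate numbers were added after the data were seen.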

Additional observations from a re-analysis of the deposited data

How the results depend on the processing

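There were 58 activation calls of single genes (28 in wild type, 30 in knockout cells). Of these, 52 were kept in every alternative that tested the gene, except the one with the Actb 3'/5' ratio as a covariate. The other 6 were Srebf2, Insig1 and Acaca in wild type and Ebp, Insig2 and Elovl1 in knockout cells. With the stricter alternative filter on dim probe sets, 34 of the 37 genes were tested. Vldlr, Fads2 and Me1 were not among them, so their calls had no test there. Srebf2 was lost without wild-type activated replicate 2 (0.95, adjusted p = 0.0568). With that covariate, which tracks the state, 4 genes passed in wild type (Idi1, Sqle, Cyp51 and Stard4) and 0 in knockout cells, and the knockout changes turned to −0.48 for Dhcr7 and −0.45 for Elovl1. The count for activation was 25 to 29 in wild type and 27 to 31 in knockout cells when each array was left out in turn. With the replicate block it was 28 and 31, and 0 for both genotype contrasts and for the difference between states. Same-numbered arrays of different groups correlated in their deviations at −0.17 to 0.07, so the numbers were not taken as pairs. Exchanging the numbers of the naive knockout arrays gave 29 and 31 activation calls and 0 others. For 8 of the 37 genes, Vldlr and Acly among them, the brightest probe set ends in _x_at or _s_at. Taking the brightest set with another ending also gave 29 and 31 activation calls and 0 others. The genotype count in naive cells and that for the difference between states ranged from 0 to 1 when each array was left out (Insig1 and Vldlr, each without wild-type naive replicate 2). In activated cells the genotype count was 1 (Vldlr) with the 4 activated arrays alone. Median centring moved the median log2 change of all probe sets from −0.16 to 0.03 for activation in wild type and from 0.00 to 0.10 for the genotype in naive cells. It moved the share of higher calls among all probe sets from 44.4% to 55.2% for activation in wild type, from 55.8% to 72.7% for the genotype in naive and from 52.5% to 64.5% in activated cells. The median of the 37 genes for activation in wild type was then 1.38. Dim probe sets (Vldlr and Fads2 in naive cells, Me1) have no detection call here, so their naive levels are weakly measured.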
